A study of Mus musculus with 4 samples.

Results

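The liver moves bile acids, conjugated organic anions, phospholipid and sterols across both faces of the hepatocyte with a small set of membrane transporters, and 10 of their genes are described here. Slc10a1, Slco1a1, Slco1a4, Slco1b2, Abcb11, Abcb4, Abcc2, Abcc3, Abcg5 and Abcg8 were chosen by symbol, as the rows whose Ensembl identifiers carry those symbols in GENCODE. All 10 were found once each, among 46603 gene rows, and all 10 passed the filter on low counts that left 13001 genes for testing. The RNA came from whole livers of 4 male mice. By the labels, mice 1 and 2 are the control group and mice 3 and 4 the HuR hKO group. All 4 were C57BL/6 J HuR flox/flox animals. Both groups ate a Western diet with 42% of calories as fat and 0.1% cholesterol, and drank sugar water with 23.1 g/L fructose and 18.9 g/L glucose, for 4 weeks. HuR hKO mice had received an AAV8 vector that carries Cre recombinase behind the thyroxine-binding globulin promoter (TBGP), which is active in hepatocytes, and control mice AAV8-TBGP-GFP. The mice were matched for age, but the sources used here give no age.

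Hepatocytes draw bile acids from sinusoidal blood mainly through the sodium-dependent carrier NTCP (Slc10a1) and through organic anion transporting polypeptides of the OATP family (Slco genes), which do not need sodium. They secrete them into the bile canaliculus through the bile salt export pump BSEP (Abcb11), while MDR2 (Abcb4) flips phosphatidylcholine into bile, MRP2 (Abcc2) exports conjugated bilirubin and other anions, and ABCG5 with ABCG8 form a heterodimer that secretes cholesterol and plant sterols. MRP3 (Abcc3) sits on the basolateral face and returns conjugates to the blood. Several of these genes are known targets of nuclear receptors that sense bile acids or oxysterols, and in mouse liver Slco1a1 is known to be higher in males and Slco1a4 higher in females.

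HuR is encoded by Elavl1, so its level checks the labels. Elavl1 had 377 and 347 reads in control mice 1 and 2, and 541 and 648 reads in mice 3 and 4. On scaled library sizes this was 28.4 and 25.9 CPM (counts per 1e6 scaled reads) against 37.7 and 34.4 CPM, higher in both libraries labelled HuR hKO. The difference was 0.41 on the log2 scale (SE 0.135, 95% interval 0.10 to 0.72). By edgeR's quasi-likelihood test its unadjusted p was 0.0160 and its adjusted p, over all genes tested, 0.545. The transcript was thus not lower where the label says that the gene was deleted, and because counts cover the whole gene they do not show which exons remain. Elavl1 also shares 204 exonic bases with Ccl25 on the opposite strand, which had 33 to 57 reads. Every direction given here is between libraries by their labels. The hepatocyte markers Alb, Apoa1, Ttr and 7 others summed to 72979 and 73239 CPM in control livers and to 69700 and 79016 CPM in those labelled HuR hKO. Alb alone, at 43501 and 40983 CPM against 41499 and 45366 CPM, made up most of each sum. Of the 10 markers, 0 had an unadjusted edgeR p under 0.05. Library totals ran from 13032095 to 19715577 counts, the mitochondrial share from 6.56% to 7.64%, and the 10 transporter genes took 0.329% to 0.406% of all counts.

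The start regions of the 2 genes with the largest differences, Slco1a1 and Slco1a4, are shown first, so that their sequences can be compared. Both lie on the minus strand of chromosome 6 in a cluster of Slco genes, where Slco1b2 (141629518 to 141686646, plus strand), Slco1a4 (141805440 to 141856199), Slco1a1 (141907282 to 141946962), Slco1a6 (142085761 to 142208521) and Slco1a5 (142234227 to 142322981) follow each other on GRCm38. The stretches are the 250 bases before each RefSeq start, chr6:141946963-141947212 for Slco1a1 and chr6:141856221-141856470 for Slco1a4, both minus strand, build GRCm38.p6, written 5′ to 3′, and GENCODE annotates no exon in either. Capitals mark every match, on either strand, to TATAAA (the TATA box), TTCNNNGAA (the STAT5 element), GTTAAT (the HNF1 motif), AGGTCA (the core motif of nuclear receptors) or GATAA (the GATA box). None of the marked matches overlap each other.
Slco1a1: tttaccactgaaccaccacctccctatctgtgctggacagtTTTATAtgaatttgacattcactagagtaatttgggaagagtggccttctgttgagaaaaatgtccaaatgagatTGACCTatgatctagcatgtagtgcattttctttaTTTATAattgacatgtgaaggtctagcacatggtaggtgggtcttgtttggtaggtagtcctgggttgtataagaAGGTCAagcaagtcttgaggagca
Slco1a4: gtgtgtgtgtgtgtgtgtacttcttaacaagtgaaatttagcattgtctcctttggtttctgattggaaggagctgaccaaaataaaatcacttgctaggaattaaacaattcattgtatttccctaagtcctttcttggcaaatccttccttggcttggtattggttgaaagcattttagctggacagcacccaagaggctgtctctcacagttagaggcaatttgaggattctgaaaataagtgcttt

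The Slco1a1 stretch held AGGTCA once on each strand and TATAAA 2 times on the reverse strand, and the Slco1a4 stretch held none of the 5 motifs. Among 32851 RefSeq promoter stretches of the same length, 14.0% held AGGTCA, 12.4% TATAAA, 7.02% TTCNNNGAA, 6.43% GTTAAT and 22.6% GATAA. Their GC content was 40.4% for Slco1a1 and 39.2% for Slco1a4, against a median of 52.4% over all stretches. These matches describe letters only.

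The stretch between Abcg5 and Abcg8 is shown because the products of these 2 genes work as one transporter. Abcg5 (chromosome 17, 84658234 to 84683011, minus strand) and Abcg8 (84676302 to 84700333, plus strand) point away from each other, and their nearest RefSeq starts are 109 bases apart. The bases between them, chr17:84683012-84683120, are given on the plus strand of GRCm38.p6 with the same motifs in capitals, and hold no annotated exon.
Abcg5-Abcg8: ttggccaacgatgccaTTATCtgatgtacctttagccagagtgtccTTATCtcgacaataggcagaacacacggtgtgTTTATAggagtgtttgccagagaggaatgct

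This short stretch held GATAA 2 times and TATAAA once, all read on the minus strand, which is the strand of Abcg5. Of the 109 bases nearest to each of the 32851 RefSeq starts, 9.36% held GATAA at least once, 0.788% at least 2 times, and 5.9% held TATAAA. The 2 gene models share 82 exonic bases on opposite strands in GENCODE, because an Abcg8 transcript starts farther upstream. Whether the counting used strand is not given in the sources used here, so reads in those bases cannot be assigned to one gene with certainty.

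Of the 10 transporter genes, 0 passed an adjusted p under 0.05 in edgeR's quasi-likelihood test between the libraries labelled HuR hKO and the control libraries, where 0.0231% of all genes tested did (3 of 13001, 0.0154% higher and 0.00769% lower). The count was also 0 with DESeq2 and with limma-voom. At an unadjusted p under 0.05 there were 2, Slco1a1 lower and Slco1a4 higher, in edgeR and in both other tools, beside 7.43% of all genes (4.04% higher and 3.39% lower). Slco1a4 alone also passed a fold of 1.8 with an unadjusted p under 0.05, beside 2.12% of all genes (1.21% higher and 0.915% lower). The groups did not overlap for 5 of the 10 genes, beside 38.1% of all genes: Slco1a1, Slco1b2, Abcb11 and Abcb4 were lower in both libraries labelled HuR hKO (18.8% of all genes) and Slco1a4 was higher in both (19.3%). The fitted change lay below 0 for 7 of the 10, beside 49.7% of all genes (with unscaled counts, where the median of all genes was 0.31, Slco1a1 alone lay below 0), and its median was -0.07, beside 0.00 over all genes tested, on the log2 scale. With 2 mice a group the model carries few degrees of freedom, and an exact permutation test of a single gene cannot give a p under 0.333. The labels number the mice as separate animals, so the spread is between animals, but 2 per group estimate it poorly. In simulated counts with these depths and this design, edgeR recovered 62.3% of genes changed 2-fold and 92.7% of those changed 4-fold at an adjusted p under 0.05, with 3.13% of its calls false. Each simulated gene had the dispersion of the trend at its level, and genes were drawn independently. Extra spread of single genes, and differences between mice shared by many genes, were thus left out, so these shares do not carry over to the 4 livers.

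**Figure D1:**
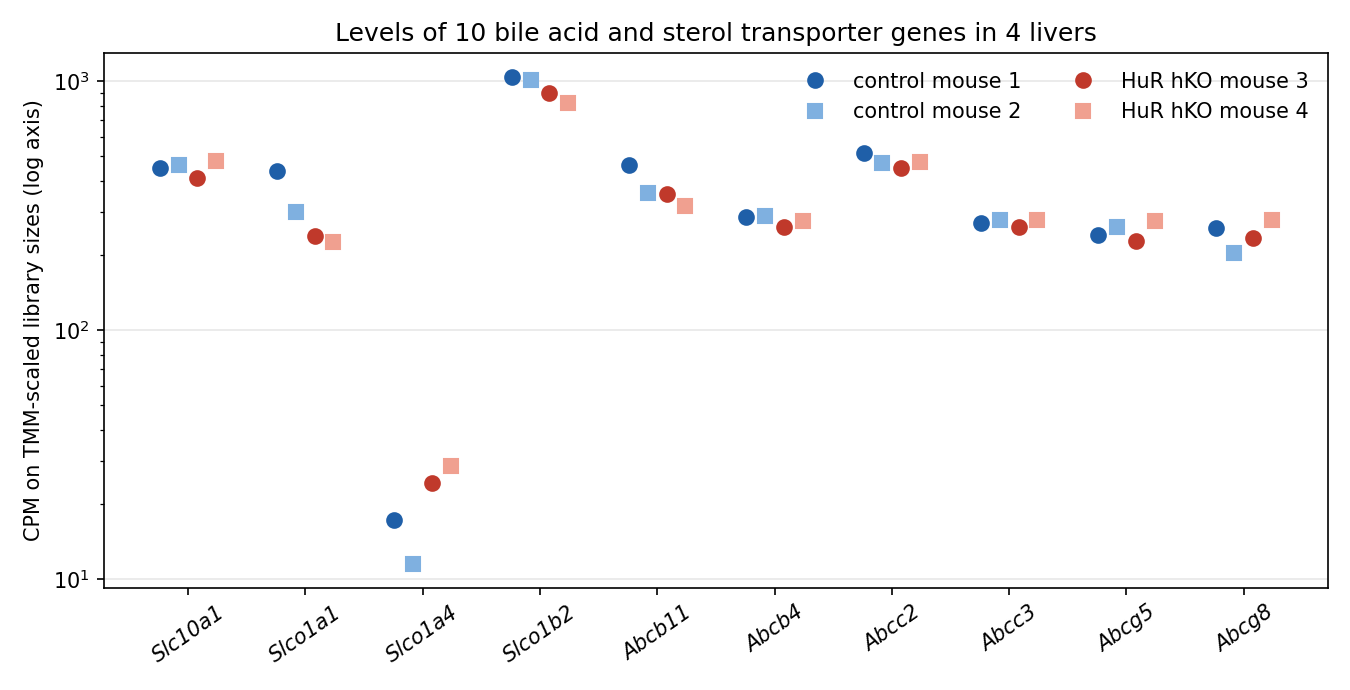
Level of each of the 10 transporter genes (x axis) in each of the 4 livers, in CPM on scaled library sizes on a log axis; blue points are control mice 1 and 2 and red points mice 3 and 4 labelled HuR hKO. Slco1a4 lies at 11.6 to 28.6 CPM, with both red points above both blue ones, and Slco1a1 shows the reverse order at 226 to 438 CPM.

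Among the uptake carriers, the level of Slco1a1 was lower and that of Slco1a4 higher in both livers labelled HuR hKO, neither past an adjusted p under 0.05, and the intervals of the main carriers Slc10a1 and Slco1b2 included 0. Slco1a1 encodes OATP1A1, a carrier of bile acids and steroid conjugates. It had 5819 and 4008 reads in control mice 1 and 2 against 3426 and 4256 reads in mice 3 and 4, or 438 and 299 CPM against 239 and 226 CPM. Control mouse 1 stood well above the other 3 livers, and both libraries labelled HuR hKO lay below both controls. The group means were 369 ± 98.1 CPM and 232 ± 9.24 CPM (SD, n = 2 each). By edgeR, the fold was 0.631 (log2 change -0.66, SE 0.189, 95% interval -1.10 to -0.23), with an unadjusted p of 0.00771 and an adjusted p of 0.448. Without control mouse 1 the log2 change was -0.38 and its unadjusted edgeR p 0.0637, and without control mouse 2 it was -0.91. Over 13 alternatives the edgeR, DESeq2 or limma adjusted p ran from 0.0505 to 1.00.

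Slco1a4 encodes OATP1A4, a relative that also carries cardiac glycosides. It had 230 and 155 reads in control mice 1 and 2 against 350 and 538 reads in mice 3 and 4, or 17.3 and 11.6 CPM against 24.4 and 28.6 CPM. Both libraries labelled HuR hKO lay above both controls, and control mouse 2 was the lowest. The group means were 14.4 ± 4.06 CPM and 26.5 ± 2.93 CPM (SD, n = 2 each). By edgeR, the fold was 1.84 (log2 change 0.88, SE 0.203, 95% interval 0.41 to 1.34), with an unadjusted p of 0.00246 and an adjusted p of 0.312. Leaving out each mouse in turn gave log2 changes from 0.62 (without control mouse 2) to 1.18 (without control mouse 1). Without control mouse 2, or without mouse 4 (0.76), the change fell short of a fold of 1.8. The adjusted p fell under 0.05 when low genes were not filtered out (0.0138) and when counts were not scaled (0.00365).

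The exonic sequences of Slco1a1 and Slco1a4 are related: 134 of the 5302 stretches of 31 bases in Slco1a1 transcripts, or 2.53%, also occur in Slco1a4 transcripts. In all, 4.02% of Slco1a1 and 5.03% of Slco1a4 stretches occur in some other gene, and how reads from them were assigned is not given in the sources used here. At 2.53%, the shared part of Slco1a1 would amount to 147 and 101 reads in control mice and 86.6 and 108 in mice 3 and 4, small beside its own counts but not beside the 230, 155, 350 and 538 reads of Slco1a4. The part of shared reads in the Slco1a4 counts was not tested. The ratio of Slco1a1 to Slco1a4 reads, which no scaling of the libraries can change, was 25.3 and 25.9 in the control livers and 9.79 and 7.91 in those labelled HuR hKO. The 2 control ratios were close although each gene's level differed between the control mice, and both ratios of the other group were far lower. The difference was -1.54 on the log2 scale, and the exact permutation test gave p = 0.333 (two-sided), the smallest that 2 against 2 allows. This pair was chosen for the ratio after its values were seen.

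Slco1b2 encodes OATP1B2, the main liver OATP of the mouse. Its levels were 1039 and 1011 CPM in the control livers and 902 and 817 CPM in those labelled HuR hKO. Both of the latter were lower, by a log2 change of -0.25 (SE 0.149, 95% interval -0.60 to 0.09) with an edgeR adjusted p of 0.743. Slc10a1, which encodes NTCP (chromosome 12, 80953183 to 80968705, minus strand), was at 451 and 463 CPM in the control livers and at 409 and 478 CPM in those labelled HuR hKO. Its groups overlapped, and the log2 change of -0.04 (SE 0.145) had a 95% interval from -0.38 to 0.29, so a change in NTCP transcript larger than these bounds lies outside the interval of the model. Divided by exon length and scaled to 1e6 per library (TPM), the 4 uptake genes came to 1149 and 1006 TPM in the control livers and 968 and 877 TPM in those labelled HuR hKO. Of the sum of the 3 Slco genes, Slco1a1 made up 28.0% and 21.5% in control livers and 19.5% and 20.1% in the others, and Slco1a4 0.910% and 0.685% against 1.64% and 2.09%.

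**Figure D2:**
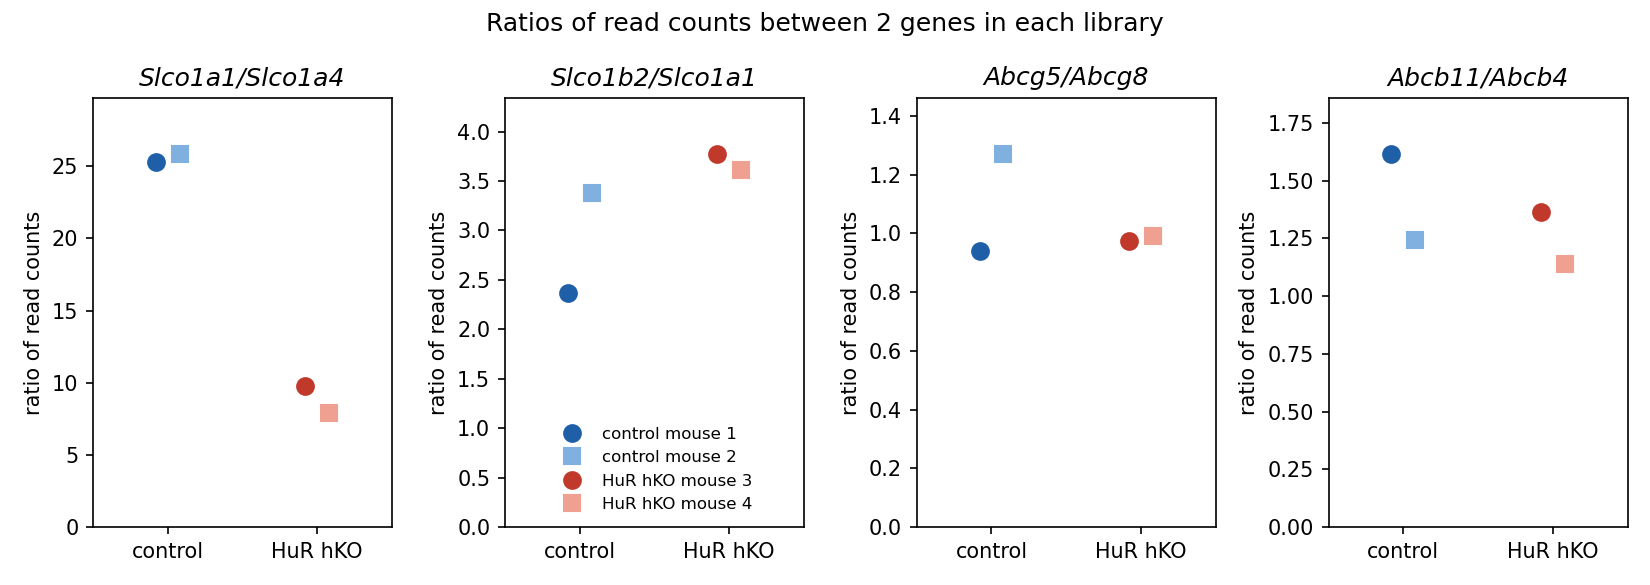
Ratio of read counts between 2 genes within each library, with control mice in blue and mice labelled HuR hKO in red, each y axis starting at 0. The Slco1a1/Slco1a4 ratio was 25.3 and 25.9 in control livers and 9.79 and 7.91 in the others, Slco1b2/Slco1a1 also separated the groups, and Abcg5/Abcg8 and Abcb11/Abcb4 overlapped between the groups.

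The Slco1b2 to Slco1a1 ratio of reads was 2.37 and 3.38 in the control livers and 3.77 and 3.62 in those labelled HuR hKO, so its groups did not overlap, but the control ratios differed more from each other than the nearest pair between the groups. Of 3 OATP relatives outside the 10 genes, 1 was detected. Slco1a5 and Slco1a6, neighbours of Slco1a1 in the cluster, had 0 counts in all 4 libraries, where 3 counts would be 0.152 to 0.230 CPM. Slco2b1, which encodes OATP2B1, was at 182 and 172 CPM in control livers and 167 and 186 CPM in the others, a log2 change of -0.00 (SE 0.131).

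Transcripts of the canalicular exporters did not pass the test in either direction, and their fitted changes lay between -0.29 and 0.15 on the log2 scale. Abcb11, the bile salt export pump gene (chromosome 2, 69238282 to 69342616, minus strand), was at 463 and 357 CPM in control livers and at 354 and 315 CPM in those labelled HuR hKO. Control mouse 1 was the highest, while control mouse 2 and mouse 3 had nearly the same level. The log2 change was -0.29 (SE 0.167, 95% interval -0.68 to 0.09), with an edgeR adjusted p of 0.734. Without control mouse 1 it was -0.10, and without control mouse 2 it was -0.47. Abcb4, the phospholipid floppase gene (chromosome 5, 8893717 to 8959231, plus strand), was at 287 CPM in both control livers, and at 260 and 276 CPM in those labelled HuR hKO. Its log2 change was -0.10 (SE 0.130, 95% interval -0.40 to 0.20). The Abcb11 to Abcb4 ratio of reads was 1.62 and 1.24 in control livers and 1.36 and 1.14 in the others.

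Abcc2, which encodes MRP2 (chromosome 19, 43782192 to 43840740, plus strand), was at 515 and 470 CPM in control livers and at 449 and 477 CPM in those labelled HuR hKO. The groups overlapped, and the log2 change was -0.09 (SE 0.141, 95% interval -0.41 to 0.23). ABCG5 and ABCG8 secrete sterols only as a pair. Abcg5 was at 242 and 260 CPM in control livers and at 228 and 275 CPM in the others, and its log2 change of 0.00 (SE 0.146) had a 95% interval from -0.33 to 0.34. Abcg8 was at 258 and 204 CPM in control livers and at 235 and 277 CPM in the others, with a log2 change of 0.15 (SE 0.163, 95% interval -0.23 to 0.52). Control mouse 2 had the lowest Abcg8 level and, among control mice, the higher Abcg5 level. Its ratio of Abcg5 to Abcg8 reads was 1.27, while the other 3 livers had 0.939, 0.974 and 0.992.

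Abcc3, the basolateral exporter gene (MRP3, chromosome 11, 94343295 to 94392997, minus strand), was at 271 and 278 CPM in control livers and at 260 and 277 CPM in those labelled HuR hKO. The groups overlapped, with a log2 change of -0.03 (SE 0.131, 95% interval -0.33 to 0.27). Of the nearest partners of Abcc3 in export to blood, Slc51a and Slc51b did not pass the filter and Abcc4 gave few reads. Slc51a, which encodes the alpha subunit of the organic solute transporter OST, had 0 counts in all 4 libraries. Its partner Slc51b had 0 and 3 counts in control mice against 2 and 14 in mice 3 and 4, too few for the filter. Abcc4, which encodes MRP4, had 27 and 17 counts in control mice against 41 and 35 in mice 3 and 4, a log2 change of 0.50 (SE 0.412, 95% interval -0.45 to 1.45) with an edgeR adjusted p of 0.829.

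**Figure D3:**
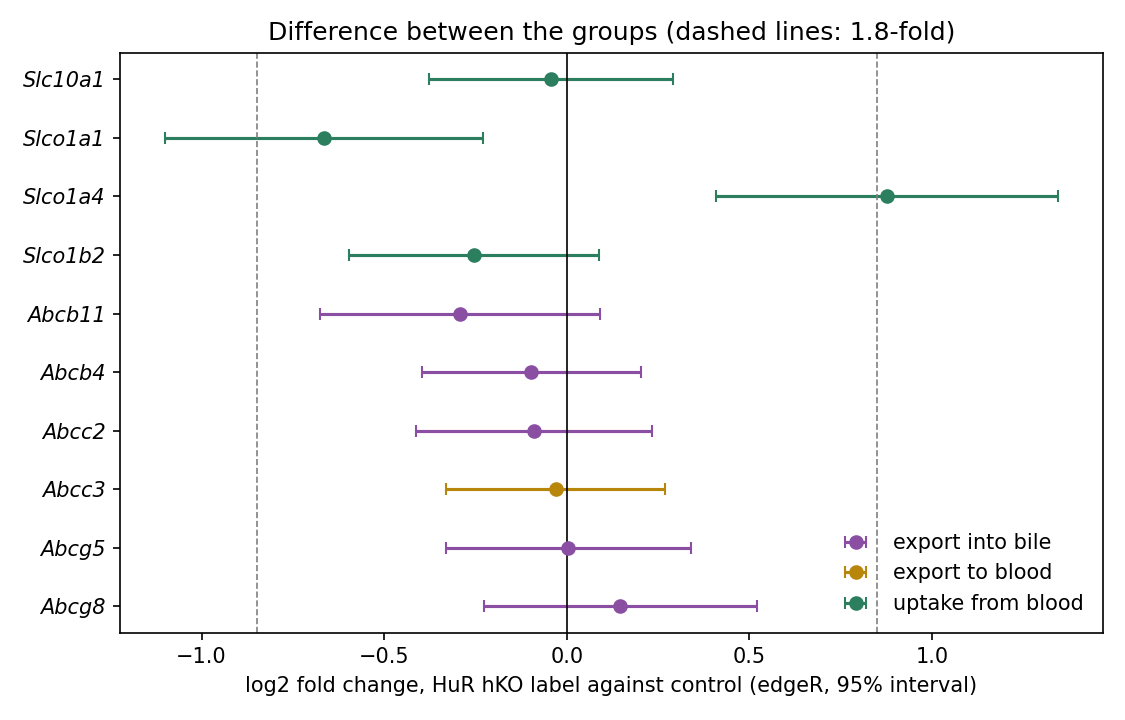
Fitted log2 fold change of each gene, libraries labelled HuR hKO against control, from edgeR, with bars for the 95% interval; colours give the role and dashed lines a fold of 1.8. The intervals of Slco1a1 (-1.10 to -0.23) and Slco1a4 (0.41 to 1.34) exclude 0 without correction for the number of genes tested, and the other 8 include it.

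Because a long transcript yields more reads than a short one at the same number of molecules, the order of the 10 genes by level was read only per length, as TPM with the union of annotated exons as length. In the order of the means over all 4 livers, Slc10a1 (448 TPM) and Slco1b2 (420 TPM) came first, then Abcg5 (202 TPM), Abcb11 (159 TPM), Abcg8 (142 TPM), Slco1a1 (126 TPM), Abcc2 (123 TPM), Abcc3 (104 TPM), Abcb4 (64.8 TPM) and Slco1a4 (6.97 TPM). The range over the 4 livers did not overlap between Slco1b2 and Abcg5, between Abcc2 and Abcc3, between Abcc3 and Abcb4, or between Abcb4 and Slco1a4, and the other 5 neighbouring pairs did not differ beyond their spread. Within the whole tested set, 9 of the 10 genes had a higher level than at least 89.1% of genes, while Slco1a4 was higher than 51.0%. The order rests on the length used: with the longest annotated transcript, Slco1b2 came first at 518 TPM, Slc10a1 followed at 466 TPM, and Abcb4 came at place 6 with 123 TPM.

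**Figure D4:**
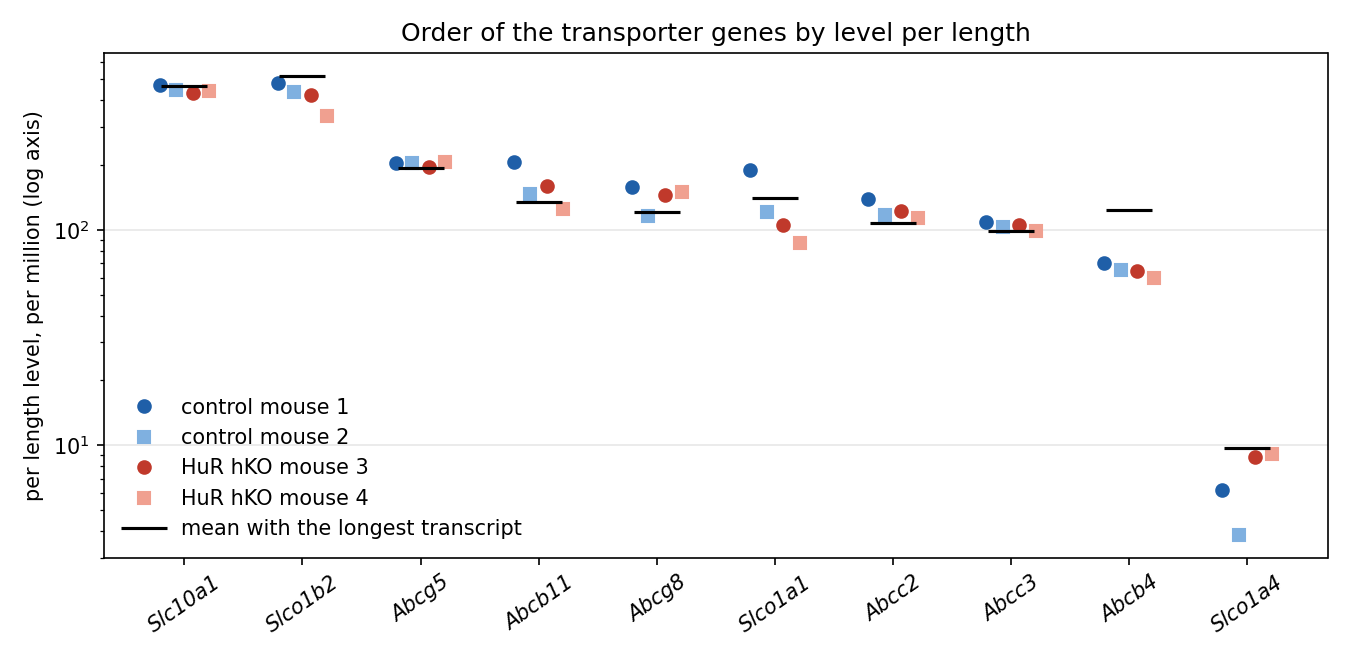
Level per length of the 10 genes in each liver, in TPM on a log axis, ordered by the mean, with a black line for the mean when the longest transcript gives the length. Slc10a1 and Slco1b2 lie at 338 to 483 TPM, Slco1a4 at 3.83 to 9.08 TPM, and the line for Abcb4 (123 TPM) stands above its points.

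The genes around these transporters were read from lists by role. Of 25 other bile acid, organic anion and sterol transporters, 20 were tested, 9 with a fitted change above 0 and 11 below it, and their median was -0.01 on the log2 scale. Of 14 bile acid synthesis and conjugation genes, 11 had a fitted change below 0 and 3 above, with a median of -0.14. Of all genes tested, 49.7% had a fitted change below 0. Cyp7a1, the gene for the rate-limiting enzyme of the classical pathway, was the single one of the 14 with an unadjusted edgeR p under 0.05, beside 7.43% of all genes. It was at 101 and 132 CPM against 65.5 and 89.0 CPM (-0.59, edgeR adjusted p 0.530), and is named after its values were seen. In neither list did a gene pass a fold of 1.8 with an unadjusted p under 0.05, or an adjusted p under 0.05.

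Of 14 tested nuclear receptors, factors and receptors that act on these transporters, 2 had an unadjusted p under 0.05, beside 7.43% of all genes, and are named after their values were seen. Rara, a retinoic acid receptor gene, was at 21.3 and 25.0 CPM in control livers and 15.3 and 15.6 CPM in the others (-0.58, edgeR adjusted p 0.381), and Klb, the co-receptor gene for FGF15, at 15.8 and 13.7 CPM against 20.4 and 23.5 CPM (0.58, edgeR adjusted p 0.427). Of 10 genes for anchoring or delivery of transporters to the membrane, Ezr (ezrin) alone had an unadjusted p under 0.05, at 9.93 and 4.33 CPM against 3.91 and 3.98 CPM (-0.85, edgeR adjusted p 0.670), where control mouse 1 stood apart. Of known target genes other than the transporters, 1 of 10 for LXR (Fasn, higher), 1 of 7 for FXR (Apoc2, higher), 2 of 10 for CAR or PXR (Gstm3 higher, Ugt1a1 lower) and 1 of 9 for NRF2 (Gsta1, higher) had an unadjusted p under 0.05, beside the same 7.43% of all genes, and 0 had an adjusted edgeR p under 0.05. Gstm3 (14.6 and 20.2 CPM against 45.3 and 20.8 CPM) and Gsta1 (3.46 and 5.75 CPM against 17.0 and 6.90 CPM) passed 1.8-fold with mouse 3 far above mouse 4. Fasn, Apoc2 and Ugt1a1 are named after their values were seen.

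Because Slco1a1 and Slco1a4 are sex-biased in mouse liver, other sex-biased genes are given beside them. Of 14 tested genes known to be higher in males, other than Slco1a1, 11 had a fitted change below 0, beside 49.7% of all genes. An unadjusted edgeR p under 0.05 was found for 6, all 6 lower, beside 3.39% of all genes lower. The list was chosen with earlier results of these data known, so these shares are not read as an enrichment. The median log2 change of the 14 was -0.35. Past a fold of 1.8 were Ugt2b38, at 13.0 and 13.4 CPM in control livers and 7.26 and 4.25 CPM in the others (-1.21, edgeR adjusted p 0.223), and the complement gene C6, at 209 and 145 CPM against 99.6 and 79.1 CPM (-0.99, edgeR adjusted p 0.200). The summed level of the list did not follow, at 10094 and 7873 CPM in control livers and 10871 and 8855 CPM in the others, and within it Mup20 had a fitted change above 0 (4233 and 2698 CPM against 5974 and 4261 CPM). Of 15 genes known to be higher in females, 6 passed the filter on low counts. Of these, Cyp2a4 and Cyp2b13 passed it only through the libraries labelled HuR hKO and Cyp2c40 only through the control libraries, so no count of calls is read from this list.

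Higher in both livers labelled HuR hKO were the cytochrome P450 genes Cyp2b9 (6.47 and 8.88 CPM against 16.7 and 27.2 CPM), Cyp2b13 (0.677 and 1.05 CPM against 3.91 and 5.20 CPM) and Cyp2a4 (0.828 and 0.523 CPM against 28.1 and 10.6 CPM). Cyp2c40, with 1.73 and 2.24 CPM against 0.349 and 1.11 CPM, was lower in both. No test is read for Cyp2a4, Cyp2b13 or Cyp2c40, because each passed the filter through 1 group only. For Cyp2b9, which passed it in both groups, the edgeR adjusted p was 0.137. DESeq2 put Cyp2b9, Ugt2b38 and C6 under an adjusted p of 0.05, and edgeR did not. The summed level of the list was 31.7 and 95.6 CPM in control livers and 95.6 and 127 CPM in the others, and A1bg was at 0 in all 4 libraries. Acot3 alone was at 9.41 and 65.7 CPM in control livers and 34.8 and 67.7 CPM in the others, which is most of the gap between the sums of the 2 control livers. The libraries carried 1 to 8 reads of Xist and 653 to 945 of the Y-linked Ddx3y, as in males. The part of sex-biased expression in the Slco1a1 and Slco1a4 differences was not tested.

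The livers are bulk tissue, so fewer cells of a type and less RNA per cell cannot be told apart in any of these values. Beside the transporter values, stellate cell markers summed to 217 and 222 CPM in control livers and 239 and 294 CPM in those labelled HuR hKO. Of these, Col1a1 and Col3a1, both higher, were the 2 of 10 at an unadjusted edgeR p under 0.05, beside 7.43% of all genes (4.04% higher). Kupffer cell markers summed to 258 and 265 CPM against 296 and 279 CPM, with 0 of 11 at that threshold. Cholangiocyte markers, of cells that also express some bile acid carriers, summed to 74.8 and 47.4 CPM against 59.5 and 68.6 CPM. At that threshold was 1 of 7 tested (Spp1, higher), beside the same 7.43% of all genes. Endothelial markers summed to 289 and 252 CPM against 327 and 283 CPM, with 0 of 10. Neutrophil and lymphocyte markers summed to at most 8.14 CPM in any library, and 0 of 5 tested were at that threshold. Of 7 intestinal epithelium markers 2 were tested and Cdx2, Lct and Fabp6 had 0 counts. The part of other cell types in the transporter values was not tested.

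**Figure D5:**
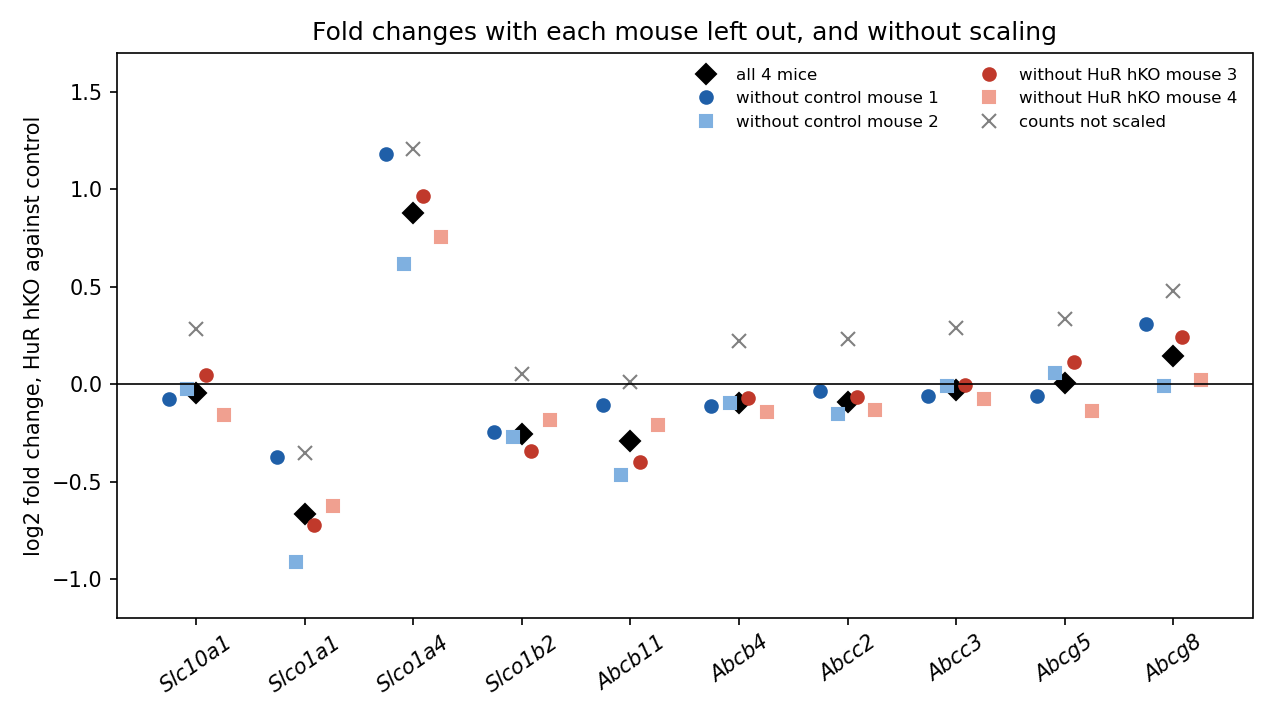
Log2 fold change of each gene, libraries labelled HuR hKO against control, with all 4 mice (black diamonds), without each mouse in turn (coloured points) and from counts that were not scaled (grey crosses). Slco1a1 stayed between -0.91 and -0.38 and Slco1a4 between 0.62 and 1.18 with 1 mouse left out, and unscaled counts placed every gene higher than scaled counts did.

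Left out in turn, no single mouse changed the direction of Slco1a1, Slco1a4, Slco1b2, Abcb11, Abcb4, Abcc2 or Abcc3, as the plot of changes without each mouse shows. The direction of Slc10a1 (0.05 without mouse 3), Abcg5 (-0.06 without control mouse 1 and -0.14 without mouse 4) and Abcg8 (-0.01 without control mouse 2) depended on single mice. Without mouse 4, the median of the 10 changes went from -0.07 to -0.14.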

How the data were processed

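Liver RNA-seq of 4 mice (2 a group) was analysed from 1 table of read counts, which the authors deposited as whole numbers for 46603 Ensembl genes without normalization. The labels say the libraries followed Genewiz's protocols, and the submitters' processing notes name RSEM and GRCm38 without a role. If RSEM made the counts, they are rounded estimates. The aligner, annotation release and use of strand are not given in the sources used here. Every column of the table belonged to 1 of the 4 mice.

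Symbols, positions and exon lengths came from GENCODE M21 (GRCm38), and promoter stretches from RefSeq (GRCm38.p6, 9 of the 10 genes matched; Abcc3 had no entry). Genes were kept by filterByExpr (minimum count 10, minimum total 15), scaled by TMM and tested with edgeR 4.0.16 (quasi-likelihood, R 4.3.3) with Benjamini-Hochberg adjustment over 13001 genes. Intervals are at 95%. Each SE was worked back from the log2 change and the F statistic of its edgeR test, so SEs and intervals are approximate. DESeq2 1.42.0, limma 3.58.1 and other scalings, filters and replicate sets were alternatives. The paper's threshold of a 1.8-fold change with an unadjusted p under 0.05 was also counted. CPM uses TMM-scaled library sizes. The tests were checked on simulated counts. Named genes were the 10 transporters, Elavl1, their nearest relatives Slco1a5, Slco1a6, Slco2b1, Slc51a, Slc51b and Abcc4, and listed genes past 1.8-fold with an unadjusted p under 0.05 or an adjusted p under 0.05. Cyp7a1, Rara, Klb, Fasn, Apoc2, Ugt1a1, Spp1, Col1a1, Col3a1, Mup20 and Acot3 fall outside this rule and were named after their values were seen. The members and lists were chosen with earlier results of these data known. Depth per library was 13032095 to 19715577 counts. Some single-gene results of the lists are not reported here.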

Additional observations from a re-analysis of the deposited data

How the results depend on the processing

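The 10 transporter genes gave 130 log2 fold changes under the alternatives. Of these, 113 kept their direction and their side of an adjusted p of 0.05, 2 passed it (both Slco1a4) and 15 changed sign. Without scaling, the median change of all genes was 0.31 (0.00 with TMM), the median of the transporter genes was 0.26, and Slc10a1 (0.29), Slco1b2 (0.051), Abcb11 (0.011), Abcb4 (0.22), Abcc2 (0.23) and Abcc3 (0.29) turned positive, as did Slco2b1 (0.32); library depth differed by 1.51 times, which this setting leaves in the values. Abcg5, at 0.00, turned to -0.0051 with upper quartile factors, -0.0074 with library totals, -0.0079 without a filter, -0.0052 with 10 counts in every library and -0.0037 with limma-voom. With 1 mouse left out, signs changed for Slc10a1 (-0.16 to 0.046), Abcg5 (-0.14 to 0.11), Abcg8 (-0.011 to 0.31) and Slco2b1 (-0.081 to 0.052, positive without control mouse 1 and without mouse 3), and the median of the transporter genes ran from -0.14 to -0.033.

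For Elavl1, Slco2b1, Abcc4 and the 9 listed genes past 1.8-fold, 3 of 153 alternative values changed sign, all 3 of Slco2b1. Transporter genes at an adjusted p under 0.05 numbered 1 (Slco1a4) without scaling and 1 (Slco1a4) without a filter, and 0 in the main test and the other alternatives, leave-one-out included. Those past 1.8-fold numbered 0 without mouse 4 and 1 otherwise (Slco1a1 without control mouse 2, Slco1a4 elsewhere). Those at an unadjusted p under 0.05 numbered 1 without scaling and 1 to 3 with 1 mouse left out. Over all genes, calls at an adjusted p under 0.05 numbered 3 with edgeR, 155 without scaling, 161 without a filter, 85 with DESeq2, 8 with library totals and 8 with the robust test, and 0 (without mouse 3) to 45 (without control mouse 2) with 1 mouse left out. Genes past 1.8-fold with an unadjusted p under 0.05 went from 276 to 571 without scaling, 526 without a filter and 264 (without mouse 4) to 446 (without control mouse 2) with 1 mouse left out, and those in the other lists from 9 to 17 without scaling and to 17 without control mouse 2. With the longest transcript as length, 2 neighbouring pairs in the order of levels did not overlap, against 4. Alternatives for the unadjusted count, the lists, the named genes of the lists and the length were added after the data were seen. Among the listed genes counted here, Cyp2a4 and Cyp2b13 passed the filter only through the libraries labelled HuR hKO, and Cyp2c40 only through the control libraries. The counts over the lists thus include genes for which no test is read, and no result is drawn from those counts. The cause of these changes was not tested. No paired analysis was possible because the groups share no replicate numbers.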
